A study of Mus musculus with 6 samples.

Results

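The 33 genes described here encode enzymes and regulators of cholesterol and fatty acid synthesis, and were taken by gene symbol from the 14647 genes in the deposited expression table of the mouse embryonic pharyngeal arches. All 33 symbols were found in the table, and all 33 passed the filter of a mean of at least 0.5 RPKM (reads per kilobase of gene, scaled to the depth of the library), which left 13547 genes in the test. They were ordered by role into 8 genes of the mevalonate pathway, 11 of the sterol branch, 6 regulators of the sterol response with a sterol carrier, and 8 of fatty acid synthesis. The study compared 3 *Pax9*-null with 3 wild-type embryos at E9.5, matched for stage, to ask which transcripts depend on *Pax9*, a transcription factor gene of the pharyngeal endoderm. All mice were kept on a C57Bl/6J background, and the study does not state the sex of each embryo. The *Pax9* null allele was constitutive, so that every cell of the mutant embryos lacked a working gene. The tissue was the whole pharyngeal region, cut out between the junction of the first and second arches and the base of the heart, so that each library holds endoderm, ectoderm, neural crest, mesoderm, vessels and blood. Each library came from a separate embryo, and the study states no pairing by replicate number.

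Cholesterol is built from acetyl-CoA in a long chain of reactions: the mevalonate pathway makes isoprenoid units, and the sterol branch joins them into squalene, closes the rings and trims them to cholesterol. The SREBP transcription factors (sterol regulatory element-binding proteins) switch on most of these genes, and those of fatty acid synthesis, when membranes are short of sterol. SCAP escorts the SREBPs out of the endoplasmic reticulum and the INSIG proteins hold them back. In the embryo cholesterol is also attached to Hedgehog ligands, which the pharyngeal endoderm releases, and inherited loss of the late sterol enzymes causes malformations of the face and palate.

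The promoters of 5 members are printed because they carry the letters searched for here in different combinations, in genes that fell in *Pax9*-null embryos (*Srebf2*, *Mvd*, *Acly* and *Fasn*) and in a gene that was not called (*Hmgcs1*). Each is the reference sequence of RefSeq on GRCm38.p6, read 5′ to 3′ in the direction of the gene, from the 250 bases before the annotated start. For *Srebf2* the 162 bases outside any annotated exon are given. Capitals mark a match on either strand. The letters TCACNCCA are the core of a sterol regulatory element. The NF-Y factor binds CCAAT, which reads ATTGG on the other strand. The Sp factors bind the GC box, with the letters GGGCGG or, on the other strand, CCGCCC. The windows lie at chr15:82147019-82147180 on the plus strand (*Srebf2*), chr13:119690101-119690350 on the plus strand (*Hmgcs1*), chr8:122443423-122443672 on the minus strand (*Mvd*), chr11:100528001-100528250 on the minus strand (*Acly*) and chr11:120824548-120824797 on the minus strand (*Fasn*).
Srebf2: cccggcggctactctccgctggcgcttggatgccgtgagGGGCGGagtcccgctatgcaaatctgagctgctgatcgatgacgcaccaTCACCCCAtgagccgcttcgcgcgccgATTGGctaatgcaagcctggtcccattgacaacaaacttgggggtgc
Hmgcs1: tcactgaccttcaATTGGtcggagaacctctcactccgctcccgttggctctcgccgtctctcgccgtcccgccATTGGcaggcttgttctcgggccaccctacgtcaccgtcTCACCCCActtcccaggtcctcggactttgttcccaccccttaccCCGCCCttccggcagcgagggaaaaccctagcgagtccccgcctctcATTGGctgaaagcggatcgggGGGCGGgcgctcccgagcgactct
Mvd: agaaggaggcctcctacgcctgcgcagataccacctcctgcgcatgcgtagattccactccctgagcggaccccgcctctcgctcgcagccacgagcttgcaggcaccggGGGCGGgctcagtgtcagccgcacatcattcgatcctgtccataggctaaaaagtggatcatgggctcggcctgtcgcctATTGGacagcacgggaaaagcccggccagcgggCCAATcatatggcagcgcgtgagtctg
Acly: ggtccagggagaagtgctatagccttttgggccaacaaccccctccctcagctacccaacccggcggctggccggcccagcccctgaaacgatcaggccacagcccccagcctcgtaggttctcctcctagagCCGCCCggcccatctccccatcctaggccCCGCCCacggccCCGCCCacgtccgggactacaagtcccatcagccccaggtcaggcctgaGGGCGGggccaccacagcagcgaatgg
Fasn: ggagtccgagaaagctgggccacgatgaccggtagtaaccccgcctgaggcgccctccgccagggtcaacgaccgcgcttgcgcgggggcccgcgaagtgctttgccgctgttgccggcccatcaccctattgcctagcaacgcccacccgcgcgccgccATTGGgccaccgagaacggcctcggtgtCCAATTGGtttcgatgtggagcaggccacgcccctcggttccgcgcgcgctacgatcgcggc

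The printed *Srebf2* bases held the sterol element core, a CCAAT box and a GC box, and the *Hmgcs1* window held the sterol element core, CCAAT boxes and GC boxes. The *Mvd* window held CCAAT boxes and a GC box, the *Acly* window GC boxes alone and the *Fasn* window CCAAT boxes alone. Windows were found for 26 of the 33 members, some with several starts. The sterol element core occurred in 3 of the 26 (11.5%), *Hmgcs1*, *Msmo1* and *Srebf2*, against 3.96% of the 9587 tested genes with a window and 4.2% of all 27025 genes with one. A CCAAT box stood in 20 of the 26 (76.9%), against 40.9% of the tested genes and 37.5% of all genes. By role, it was found in 9 of 9 sterol branch genes, 6 of 7 mevalonate genes, 4 of 5 regulators and 1 of 5 fatty acid genes, which was *Fasn*. A GC box stood in 21 of the 26 (80.8%), against 65.5% of the tested and 35.4% of all genes. A match is a run of letters and was not measured as a binding site.

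Genes were called differentially expressed at a Benjamini-Hochberg adjusted *P* of at most 0.1 in limma, the study's threshold, with fold changes given as *Pax9*-null over wild-type on the log2 RPKM scale. The study ran limma with voom on read counts, whereas limma was run here on the deposited log2 RPKM values. *Pax9* itself was expressed at 0.77 ± 0.17 log2 RPKM (SD, *n*=3) in the wild type and at −0.55 ± 0.11 (SD, *n*=3) in the mutants, a fall to 40.1% of the wild-type level (adjusted *P*=0.0155 by limma). Between 11667562 and 12699497 reads per library were recovered from the values. The sum of 10 cardiomyocyte markers lay between 1160 and 1530 RPKM in 5 libraries but was 78.5 RPKM in wild-type replicate 3. The sum of 10 erythroid markers was 2650 to 4910 RPKM in *Pax9*-null and 2410 to 2510 RPKM in wild-type libraries. Limma called 2 of the 10 higher, where 14.7% of all tested genes were called higher. All 10 had a log2 fold change above 0, with a median of 0.55. Without *Pax9*-null replicate 2, limma called 10 of the 10 erythroid markers, and without *Pax9*-null replicate 1 or 3 it called 0. Pharyngeal endoderm markers summed to 170 to 228 RPKM in *Pax9*-null and 140 to 197 RPKM in wild-type libraries. Limma called 0 of the 7 tested, with 2 at an unadjusted *P* under 0.05 and 1 called by voom. Of the 7, 5 had a log2 fold change above 0 and 2 below it. The 2 were *Cdh1* (−0.53, adjusted *P*=0.134 by limma) and *Pax1* (−0.74, adjusted *P*=0.101), the latter without overlap. Only 2 of 10 markers of hepatocytes or visceral endoderm had values, summing to at most 0.583 RPKM in any library.

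Of the 33 lipid synthesis genes, 8 fell and 1 rose in *Pax9*-null embryos. The falls were in the regulators (*Srebf1*, *Srebf2* and *Scap*), in fatty acid synthesis (*Acly*, *Acaca*, *Fasn* and *Fads2*) and in a single mevalonate gene (*Mvd*), and they left 60.1% to 75.4% of the wild-type level. The rise was in *Ggps1*, to 123.5%. None of the 11 sterol branch enzymes was called. The 9 calls make 27.3% of the members, where 26.7% of all 13547 tested genes were called, so that the share of called members was close to that of all genes. Calls towards lower expression made 24.2% of the members against 12.0% of all tested genes, and 14.7% of all tested genes were called higher. The genotypes did not overlap in 9 members, 7 lower and 2 higher, against 41.9% of all tested genes, of which 20.1% lower and 21.8% higher. The median log2 fold change was −0.14 over the members and −0.0012 over all tested genes. In bulk tissue such a difference in a level can come from fewer cells of a type or from less RNA per cell, which cannot be told apart here. None of the 9 calls held in every fit with 1 library left out. Without *Pax9*-null replicate 1 or 3, limma called 0 members, with 7 and 8 at an unadjusted *P* under 0.05. It called 5 without wild-type replicate 1 or 3, 8 without wild-type replicate 2 and 12 without *Pax9*-null replicate 2. Over all 13547 genes the count of 3611 calls was 301 and 175 without *Pax9*-null replicates 1 and 3. Voom on the recovered reads called 10 of the 33 members and 3886 of 13527 genes. For 1 gene, the smallest two-sided *P* that exact permutation of 3 against 3 embryos allows is 0.1.

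**Figure D1:**
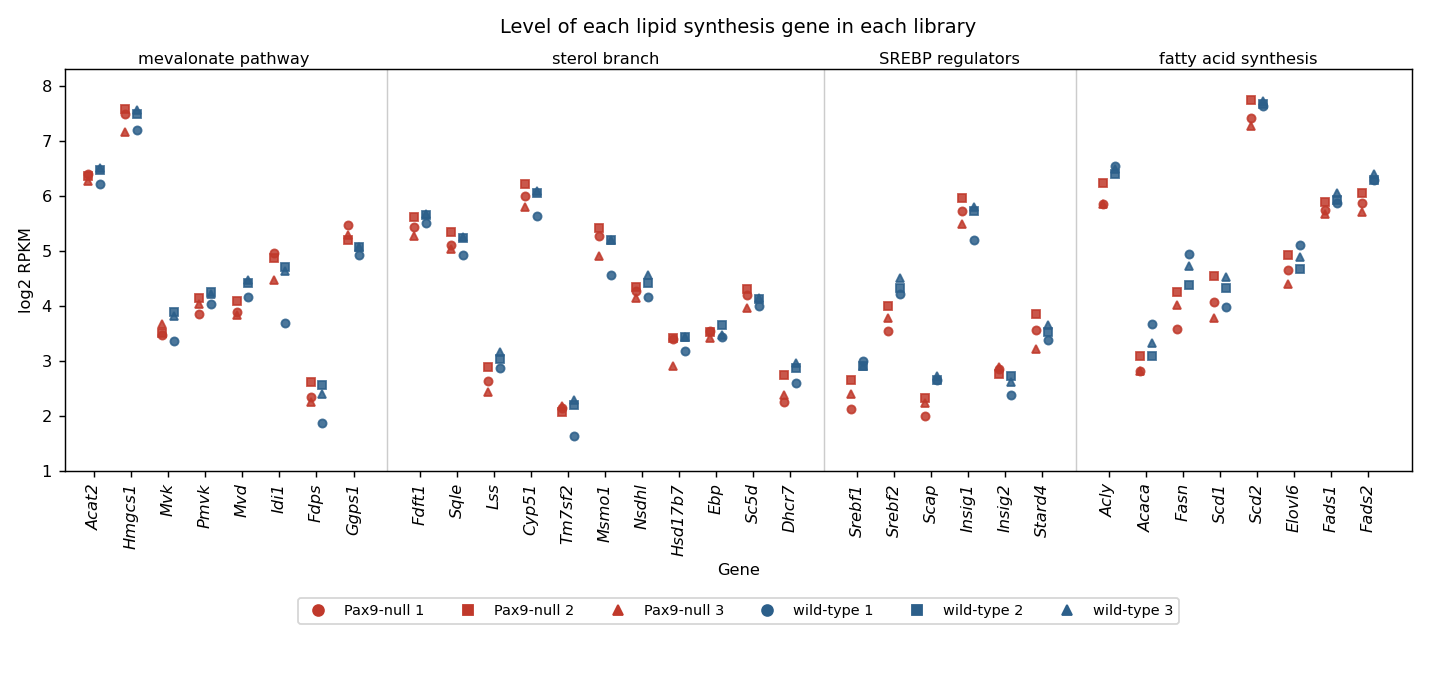
Level of each of the 33 genes (horizontal axis, grouped by role) in each of the 6 libraries on the log2 RPKM scale (vertical axis), with *Pax9*-null libraries in red, wild-type libraries in blue and symbol shape for the replicate number. *Scd2* and *Hmgcs1* were the highest, the red points of *Srebf1*, *Srebf2*, *Scap*, *Acly*, *Fasn*, *Fads2* and *Mvd* all lie below the blue ones, and wild-type replicate 1 (blue circles) is the lowest of the blue points in every mevalonate and sterol branch gene.

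Per length of gene, the mean levels over the 6 libraries ran from 4.28 RPKM for *Tm7sf2* to 192.2 RPKM for *Scd2*, a stearoyl-CoA desaturase. Behind them lay between 137 and 14531 reads per gene and library, so that counting error was not equal across members. *Scd2* had 205.1 RPKM in wild-type and 179.3 RPKM in *Pax9*-null embryos. Its relative *Scd1* had 19.5 and 17.8 RPKM. *Hmgcs1*, which makes the substrate of the rate-limiting reductase, had 171.3 and 170.5 RPKM, the highest level of the sterol-making genes. Of the regulators, *Srebf2* had 20.4 and 13.7 RPKM, *Srebf1* 7.65 and 5.28 RPKM, *Scap* 6.39 and 4.55 RPKM and *Insig1* 48.2 and 53.4 RPKM in wild-type and *Pax9*-null embryos, so that *Insig1* was the most abundant of these.

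The regulators *Srebf2*, *Srebf1* and *Scap* fell, whereas *Insig1*, *Insig2* and *Stard4* were not called. *Srebf2* (ENSMUSG00000022463, chromosome 15 of GRCm38 from 82147181 to 82205379) encodes the SREBP that mainly serves the cholesterol genes. Its log2 RPKM was 3.53, 3.99 and 3.77 in *Pax9*-null replicates 1, 2 and 3 and 4.22, 4.32 and 4.5 in wild-type replicates 1, 2 and 3. The genotypes were fully apart, with *Pax9*-null replicate 1 the lowest. This gave a log2 fold change of −0.58 (standard error, SE, 0.13, adjusted *P*=0.0428), leaving 66.7%. *Srebf1* (ENSMUSG00000020538, chromosome 11 from 60199089 to 60222581), whose product mainly serves fatty acid synthesis, was at 2.12, 2.64 and 2.39 in *Pax9*-null and 3.0, 2.90 and 2.91 in wild-type libraries. The wild-type libraries lay close together (SD 0.05, *n*=3) and well above the more scattered *Pax9*-null ones (SD 0.26, *n*=3). This gave a log2 fold change of −0.55 (SE 0.15, adjusted *P*=0.0525), leaving 68.2%. *Scap* (ENSMUSG00000032485, chromosome 9 from 110333288 to 110384950), the escort of both SREBPs, was at 1.99, 2.32 and 2.23 in *Pax9*-null and 2.65, 2.65 and 2.73 in wild-type libraries, again without overlap. It fell by 0.50 on the log2 scale (SE 0.13, adjusted *P*=0.0482), to 70.9%. On the opposite strand, *5830462I19Rik* covers 13.2% of the exon bases of *Scap*. The study made strand-specific libraries and counted reads at default settings, and how reads from these bases were counted was not examined. Without *Pax9*-null replicate 1 the limma adjusted *P* was 0.165 for *Srebf2*, 0.177 for *Srebf1* and 0.174 for *Scap*, and these values were 0.128, 0.136 and 0.128 on leaving out *Pax9*-null replicate 3. The adjusted *P* was also 0.103 for *Srebf1* without wild-type replicate 1 and for *Scap* without wild-type replicate 3. Over the alternatives it ran from 0.0228 to 0.278, 0.0345 to 0.425 and 0.0288 to 0.973.

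*Insig2*, a retention factor that holds SCAP in the endoplasmic reticulum, had the largest positive fold change among the regulators. It was at 2.85, 2.75 and 2.88 log2 RPKM in *Pax9*-null and 2.37, 2.72 and 2.61 in wild-type libraries. All *Pax9*-null values lay above the wild-type ones, though by a narrow gap, and the log2 fold change of 0.26 did not pass the test (adjusted *P*=0.178 by limma). *Insig1*, the retention factor that is itself an SREBP target, was at 5.72, 5.96 and 5.48 against 5.19, 5.72 and 5.79. Its genotypes overlapped over most of their range, and the log2 fold change was 0.16 (adjusted *P*=0.565). *Stard4*, a soluble sterol carrier, gave 0.025 (adjusted *P*=0.927). The median log2 fold change of the 6 genes was −0.24, against −0.0012 over all tested genes, of which 12.0% were called lower.

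Fatty acid synthesis was the role in which fold changes leaned one way: all 8 genes had a log2 fold change below 0, with a median of −0.34. Of the 13547 tested genes, 6799 had a log2 fold change below 0, and the median was −0.0012. Limma called 4 of the 8 lower, where 12.0% of all tested genes were called lower. *Fasn* (ENSMUSG00000025153, chromosome 11 from 120805846 to 120824547), the synthase that builds palmitate, had the largest fall of all members. Its log2 RPKM was 3.58, 4.24 and 4.01 in *Pax9*-null and 4.94, 4.38 and 4.72 in wild-type libraries. The genotypes did not overlap, but *Pax9*-null replicate 2 came close to wild-type replicate 2. This gave a log2 fold change of −0.74 (SE 0.20, adjusted *P*=0.0529), leaving 60.1%. *Acly* (ENSMUSG00000020917, chromosome 11 from 100476353 to 100528000) splits citrate to supply acetyl-CoA. It was at 5.85, 6.23 and 5.86 in *Pax9*-null and 6.54, 6.4 and 6.48 in wild-type libraries, without overlap. It fell by 0.49 on the log2 scale (SE 0.12, adjusted *P*=0.0463), to 71.2%. *Fads2* (ENSMUSG00000024665, chromosome 19 from 10062765 to 10101746), a desaturase of polyunsaturated fatty acids, was at 5.87, 6.05 and 5.70 in *Pax9*-null and 6.29, 6.28 and 6.4 in wild-type libraries. Its wild-type libraries lay close together and above every *Pax9*-null library, and the fall was 0.45 (SE 0.10, adjusted *P*=0.0431), to 73.2%. *Acaca* (ENSMUSG00000020532, chromosome 11 from 84129672 to 84401651), the carboxylase of the first committed step, was at 2.82, 3.09 and 2.82 in *Pax9*-null and 3.66, 3.09 and 3.33 in wild-type libraries. Here *Pax9*-null replicate 2 and wild-type replicate 2 were level, and the ranges overlapped (*P*=0.2, exact permutation, two-sided). This gave a log2 fold change of −0.45 (SE 0.16, adjusted *P*=0.0967), just past the threshold. Of its 50-base words, 52.6% also occur in *Gm5182*. The study kept only uniquely aligned reads, so that reads lying within such shared words may be missing from the count of a gene.

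These calls were also lost with single libraries left out. Without *Pax9*-null replicate 3 the log2 fold changes were −0.77 for *Fasn*, −0.43 for *Acly*, −0.36 for *Fads2* and −0.40 for *Acaca*. Without *Pax9*-null replicate 1 the limma adjusted *P* was 0.178 for *Fasn*, 0.177 for *Acly*, 0.167 for *Fads2* and 0.267 for *Acaca*, and on leaving out *Pax9*-null replicate 3 these became 0.135, 0.136, 0.128 and 0.227. Without wild-type replicate 1 it was 0.104 for *Fasn* and 0.202 for *Acaca*, and without wild-type replicate 3 it was 0.147 for *Acaca*. The ranges over the alternatives were 0.0357 to 0.472 for *Fasn*, 0.0278 to 0.177 for *Acly*, 0.0251 to 0.167 for *Fads2* and 0.056 to 0.527 for *Acaca*. The remaining fatty acid genes were *Elovl6*, which lengthens palmitate, the stearoyl-CoA desaturases *Scd1* and *Scd2*, and the desaturase *Fads1*. Their log2 fold changes lay between −0.23 and −0.15, with overlapping genotypes and adjusted *P* values between 0.199 and 0.64. *Scd2* was called without *Pax9*-null replicate 2 (−0.34, adjusted *P*=0.0911), and *Scd2* and *Fads1* were called after quantile normalization (adjusted *P*=0.0766 and 0.0768). Other settings gave values up to 0.639 for *Scd2* and 0.799 for *Fads1*. *Scd1* had the smallest difference of the role, at 4.06, 4.53 and 3.77 in *Pax9*-null and 3.98, 4.32 and 4.52 in wild-type libraries, and its fold change was 0.025 without *Pax9*-null replicate 3.

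In the mevalonate pathway *Mvd* fell, *Ggps1* rose and 6 of 8 genes were not called, with a median log2 fold change of −0.035. Of all tested genes, 26.7% were called in either direction. *Mvd* (ENSMUSG00000006517, chromosome 8 from 122433601 to 122443422), the decarboxylase that makes isopentenyl diphosphate, was at 3.89, 4.09 and 3.84 in *Pax9*-null and 4.15, 4.41 and 4.47 in wild-type libraries. The gap between the highest *Pax9*-null and the lowest wild-type library was small. This gave a log2 fold change of −0.41 (SE 0.12, adjusted *P*=0.0594), leaving 75.4%. *Ggps1* (ENSMUSG00000021302, chromosome 13 from 14050659 to 14063488), which makes geranylgeranyl diphosphate for protein anchors rather than for sterols, was at 5.46, 5.2 and 5.29 in *Pax9*-null and 4.91, 5.06 and 5.07 in wild-type libraries. All *Pax9*-null values were higher, and the log2 fold change was 0.30 (SE 0.09, adjusted *P*=0.0717). The sign of this change turned to −0.11 (adjusted *P*=0.348) once length and GC trends had been taken out. Limma called *Mvd* without *Pax9*-null replicate 2 and without wild-type replicate 1. In the other four fits with a library left out its adjusted *P* was 0.2 (without *Pax9*-null replicate 1), 0.159 (*Pax9*-null replicate 3), 0.11 (wild-type replicate 2) and 0.131 (wild-type replicate 3). For *Ggps1* it was 0.236 and 0.154 on leaving out *Pax9*-null replicates 1 and 3, and 0.147 and 0.117 on leaving out wild-type replicates 1 and 3. Over the alternatives it ran from 0.0251 to 0.2 for *Mvd* and from 0.0526 to 0.348 for *Ggps1*.

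*Idi1*, the isomerase of the isoprenoid unit, had the largest positive fold change of all members without passing the test. It was at 4.95, 4.87 and 4.46 in *Pax9*-null and 3.69, 4.71 and 4.63 in wild-type libraries. Wild-type replicate 1 stood 0.98 below the mean of the other wild-type libraries on the log2 scale, and the other wild-type libraries lay inside the *Pax9*-null range. The log2 fold change was 0.42 (adjusted *P*=0.299) with this library and 0.092 without it. Of its 50-base words, 30.5% occur in other genes. The other mevalonate genes were *Acat2*, which joins acetyl-CoA units, the synthase gene *Hmgcs1*, the kinases *Mvk* and *Pmvk*, and *Fdps*, which makes farnesyl diphosphate. Their log2 fold changes lay between −0.15 and 0.13, with adjusted *P* values between 0.33 and 0.97 and overlapping genotypes. *Acat2* shares 45.9% of its 50-base words with *Acat3* and *Tcp1*, and 26.7% of the exon bases of *Fdps* overlap *Gm43738* on the same strand.

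The sterol branch, which turns farnesyl diphosphate into cholesterol, showed no gene past the threshold: limma called 0 of 11, with 1 at an unadjusted *P* under 0.05 and 1 (*Lss*) called by voom. The median log2 fold change was −0.016, against −0.0012 over all tested genes, of which 26.7% were called. *Lss*, the cyclase that closes the sterol rings, had the lowest fold change. It was at 2.63, 2.88 and 2.43 in *Pax9*-null and 2.87, 3.02 and 3.15 in wild-type libraries. Only *Pax9*-null replicate 2 reached into the wild-type range, and the log2 fold change was −0.37 (adjusted *P*=0.116). *Msmo1*, an oxidase that removes methyl groups from the ring, had the highest fold change of the branch and was at 5.26, 5.42 and 4.90 against 4.56, 5.2 and 5.2. Wild-type replicate 1 was again the lowest library of all, and the log2 fold change of 0.21 (adjusted *P*=0.485) was −0.0041 without it. *Dhcr7*, the reductase of the last step, was at 2.25, 2.73 and 2.37 against 2.59, 2.86 and 2.96, with a log2 fold change of −0.35 (adjusted *P*=0.168). The synthase *Fdft1* and epoxidase *Sqle* of squalene, the demethylase *Cyp51*, the reductase *Tm7sf2*, the methyl-removing enzymes *Nsdhl* and *Hsd17b7*, the isomerase *Ebp* and the desaturase *Sc5d* had log2 fold changes between −0.16 and 0.083. Their adjusted *P* values lay between 0.313 and 0.922, and the genotypes overlapped in each. Without *Pax9*-null replicate 2, limma called 2 of the 11, *Lss* (adjusted *P*=0.0764) and *Dhcr7* (adjusted *P*=0.0879). Other settings gave adjusted *P* values from 0.0561 to 0.779 for *Lss* and from 0.0643 to 0.73 for *Dhcr7*.

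**Figure D2:**
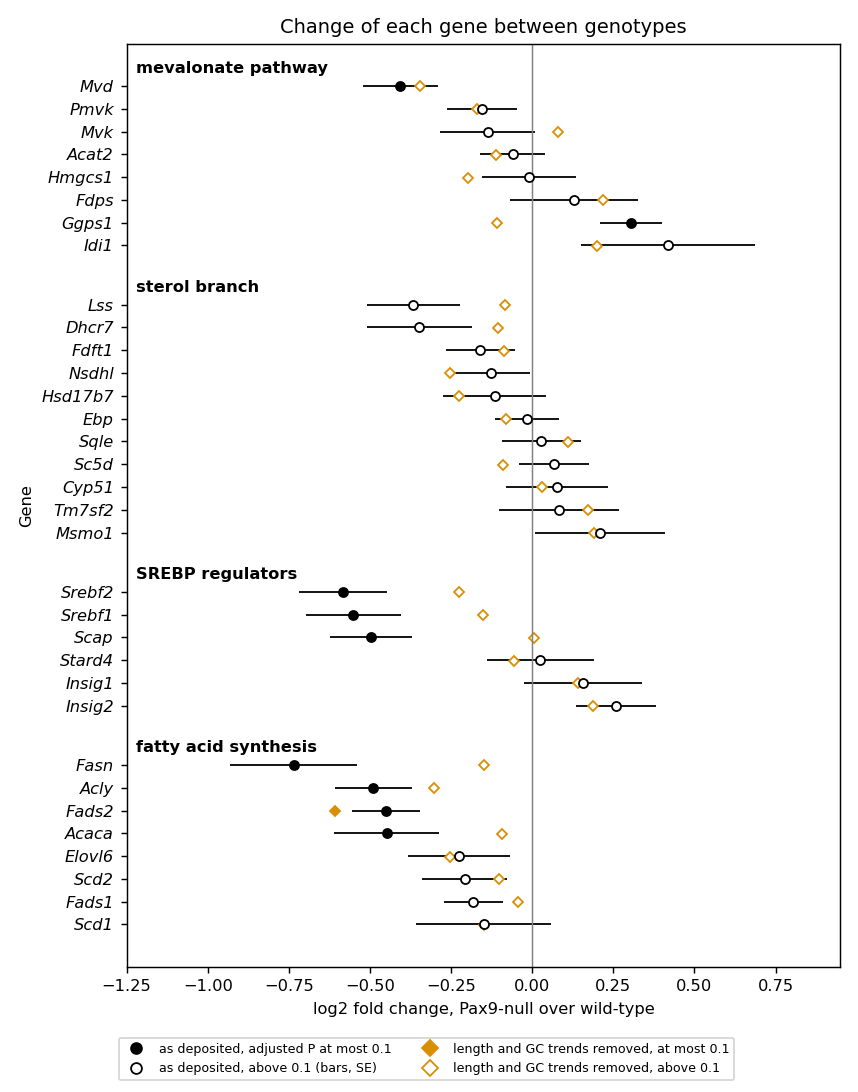
Log2 fold change of *Pax9*-null over wild-type (horizontal axis) for each gene (vertical axis, by role), as deposited with the SE (circles and bars, filled at an adjusted *P* of at most 0.1) and after removal of length and GC trends (orange diamonds, filled by the same threshold). The 9 filled circles lie in 3 of the 4 roles, and *Fads2* is the only filled diamond.

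Over the whole table, fold changes were related to the length of a gene and to its GC content. Across the tested genes, which are not independent, rank correlation (Spearman's rho) with the log2 fold change was −0.41 for length and −0.44 for GC content. The median log2 fold change was 0.54 in the shortest 10% of genes and −0.22 in the longest. The 8 members that fell had medians of 5456 bp and 57.9%, where all tested genes had 3851 bp and 49.3%, and 6 of the 8 were longer than the median gene. The 24 members not called had medians of 3856 bp and 48.4%. The exceptions in length were *Fads2* and *Mvd*, at 1508 and 1859 bp. The length of *Fads2* is the one recovered from the values, whereas its exons in GENCODE M21 cover 3295 bp. For *Ggps1*, the gene that rose, these lengths were 2367 and 4721 bp, and its GC content was 40.1%.

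For each library, smooth trends over length and GC content were then taken out. After this step limma called 1 of 33 members, where 5.44% of all genes were called, with 3 members at an unadjusted *P* under 0.05. That gene was *Fads2*, at −0.61 (adjusted *P*=0.0758). *Mvd* was at −0.35 and *Acly* at −0.30 (both 0.14), *Srebf2* at −0.22 (0.278), *Fasn* at −0.15 (0.472), *Srebf1* at −0.15 (0.425), *Acaca* at −0.095 (0.527) and *Scap* at 0.0067 (0.973). The fatty acid genes had a median of −0.15 and the regulators one of −0.024 after the step, against −0.34 and −0.24 before it. The mevalonate and sterol branch medians were −0.11 and −0.085. Beyond this step, genotype and these trends cannot be told apart.

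**Figure D3:**
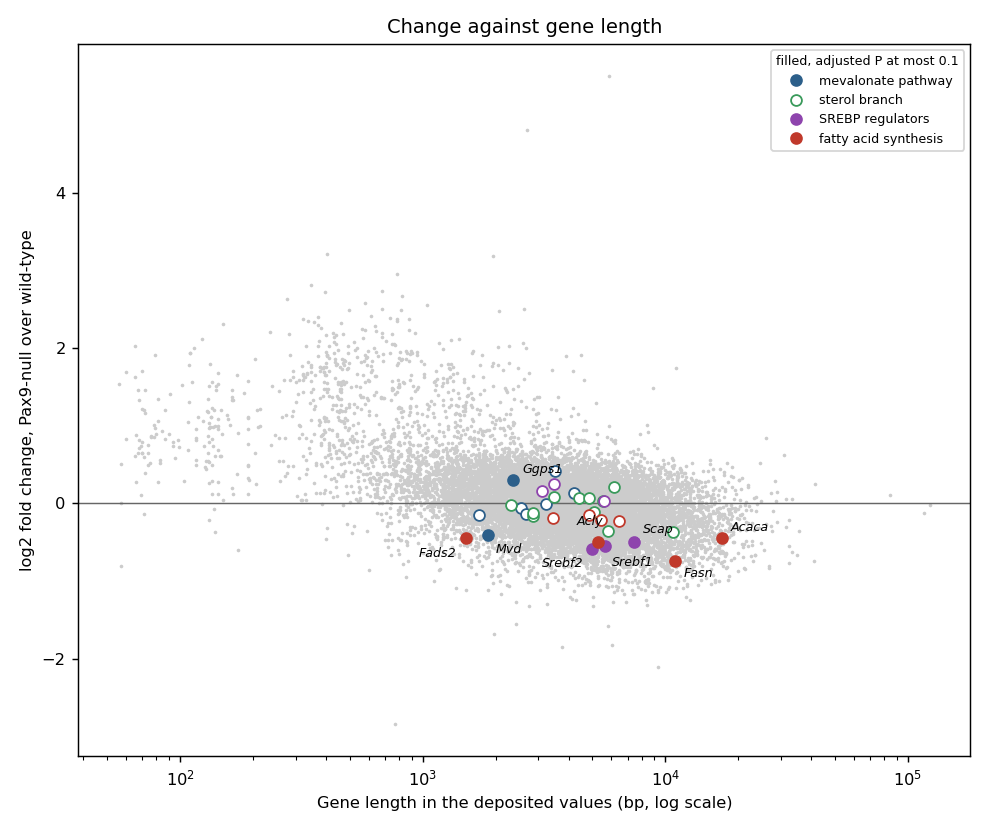
Log2 fold change of *Pax9*-null over wild-type (vertical axis) against gene length in bp on a log axis, for all tested genes with a length (grey) and the members coloured by role, filled where called. Short genes lie mostly above 0 and long genes mostly below, and of the called members that fell only *Fads2* and *Mvd* are short.

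The mevalonate and sterol branch genes kept much the same order of libraries within a genotype. Wild-type replicate 1 had the lowest value of the wild-type libraries in all 19 genes of both roles, where this held for 40.5% of all tested genes. The difference between wild-type replicate 1 and the mean of wild-type replicates 2 and 3 had a median of −0.32 on the log2 scale over the 19 genes and of −0.0032 over all genes. It was −0.98 in *Idi1*, −0.64 in *Msmo1*, −0.61 in *Fdps* and *Tm7sf2* and −0.45 in *Cyp51*. Among the regulators it was −0.56 in *Insig1*, −0.29 in *Insig2*, −0.22 in *Stard4*, −0.19 in *Srebf2*, −0.041 in *Scap* and 0.091 in *Srebf1*. With both trends taken out, wild-type replicate 1 was the lowest in 18 of the 19, against 43.8% of all genes, and the median difference was −0.32. In *Fasn* and *Acaca* the same library was the highest of the wild type, by 0.39 and 0.46 over the mean of the others. It was the highest in 4 of the 8 fatty acid genes as deposited and in 1 of 8 with the trends taken out.

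Among the *Pax9*-null embryos, replicate 2 was the highest in 26 of the 33 genes and in all 8 fatty acid genes, against 34.4% of all tested genes. *Pax9*-null replicate 3 was the lowest in 14 of the 19 mevalonate and sterol branch genes, against 31.9%. The gap between these libraries had a median of 0.34 over the 33 genes and of −0.013 over all genes, and was widest in *Scd1* (0.76), *Stard4* (0.63), *Elovl6* (0.52) and *Msmo1* (0.52). After removal of the trends, replicate 2 was the highest in 27 of the 33 genes, against 32.1% of all genes. As a mean over the 19 mevalonate and sterol branch genes, the log2 RPKM was 4.32, 4.43 and 4.18 in *Pax9*-null and 4.10, 4.45 and 4.47 in wild-type libraries. The wild-type libraries thus spanned 0.37, whereas the genotype means differed by −0.031. In 16 of the 19 genes (84.2%) the wild-type range was wider than the difference between the genotypes, against 61.6% of all tested genes. The fatty acid mean was 5.0, 5.34 and 4.94 in *Pax9*-null and 5.50, 5.34 and 5.51 in wild-type libraries, and here *Pax9*-null replicate 2 and wild-type replicate 2 were almost level.

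**Figure D4:**
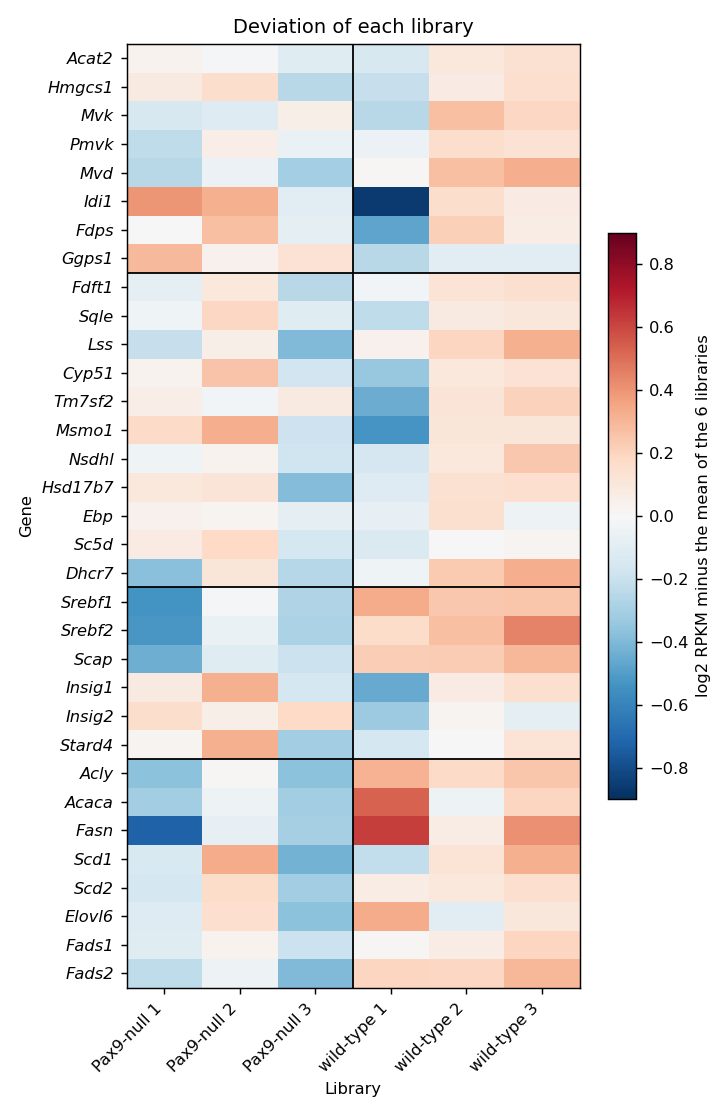
Deviation of each library (columns) from the mean of the 6 libraries for each gene (rows, in the order mevalonate, sterol branch, regulators and fatty acid synthesis), in log2 RPKM by colour. The column of wild-type replicate 1 is blue through most of the upper blocks and red for *Srebf1*, *Srebf2*, *Scap*, *Acly*, *Acaca*, *Fasn*, *Elovl6* and *Fads2*, and *Pax9*-null replicate 2 is the reddest of the *Pax9*-null columns.

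Several marker sums moved with these libraries, and their part in the pattern was not tested. Wild-type replicate 1 had the lowest sum of neural tube markers (104 RPKM, against 144 and 209 in wild-type replicates 2 and 3) and the highest of endothelial markers (122 against 84.6 and 76.4). *Pax9*-null replicate 2 had the lowest erythroid sum of its genotype (2650 RPKM, against 4910 and 4470) and the highest endoderm sum (228 against 170 and 183). Of the markers tested, 1 of 9 for neural tube was called lower, 1 of 10 for neural crest was called lower and 1 higher, and 2 of 10 for endothelium were called lower. Of all tested genes, 12.0% were called lower and 14.7% higher. Neural crest sums lay between 88.7 and 105 RPKM in all libraries. Wild-type replicate 3, with the cardiomyocyte sum of 78.5 RPKM, had a fatty acid mean of 5.51. In wild-type replicates 1 and 2, with cardiomyocyte sums of 1300 and 1400 RPKM, this mean was 5.50 and 5.34.

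Outside the synthesis chain, sterol uptake, trafficking, storage and efflux gave 3 falls and 0 rises among 18 tested genes, where 12.0% of all tested genes were called lower, with a median log2 fold change of −0.15. The falls were in *Lrp1*, a lipoprotein receptor (−0.83, adjusted *P*=0.0938), *Abca2*, a transporter of late endosomes (−0.71, adjusted *P*=0.0751), and *Npc1*, which passes cholesterol out of lysosomes (−0.58, adjusted *P*=0.071). *Npc1* was at 2.54, 2.10 and 2.08 in wild-type libraries and at 1.70, 1.85 and 1.43 in *Pax9*-null libraries, without overlap. With the trends removed limma called 0 of the 18, with *Npc1* at −0.40, *Lrp1* at −0.18 and *Abca2* at −0.19, and 2 of the 18 had an unadjusted *P* under 0.05. On leaving out *Pax9*-null replicate 1 or 3 or wild-type replicate 1, limma called 0 of the 18 (1, 3 and 2 at an unadjusted *P* under 0.05), and on leaving out wild-type replicate 3 it called 1.

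The genes of SREBP processing and degradation gave 2 rises and 0 falls among 8 tested genes, with a median of 0.046, where 14.7% of all tested genes were called higher. *Ubxn8*, an adaptor of the degradation machinery of the endoplasmic reticulum, rose by 0.51 (adjusted *P*=0.04), and *Rnf139*, a ubiquitin ligase of the same membrane, rose by 0.42 (adjusted *P*=0.0532). With the trends removed *Ubxn8* was at 0.33 (adjusted *P*=0.0998) and *Rnf139*, no longer called, at 0.19 (adjusted *P*=0.27). The proteases *Mbtps1* and *Mbtps2*, which release the SREBPs, had log2 fold changes of −0.12 and −0.0014 and were not called. Limma called neither *Ubxn8* nor *Rnf139* without *Pax9*-null replicate 1 or without *Pax9*-null replicate 3, where 2 of the 8 genes had an unadjusted *P* under 0.05.

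Among 12 genes that use isoprenoids for other ends, 3 rose and 1 fell, with a median of 0.039, where 26.7% of all tested genes were called in either direction. *Coq2*, of ubiquinone synthesis, and *Rabggtb*, which attaches geranylgeranyl groups to Rab proteins, rose by 0.41 each (adjusted *P*=0.0743 and 0.042), *Nus1*, of dolichol synthesis, rose by 0.25 (adjusted *P*=0.0631), and *Fntb*, a subunit of farnesyltransferase, fell by 0.38 (adjusted *P*=0.0756). Of the 22 genes of fatty acid activation, elongation and glycerolipid synthesis, 1 fell, the acyltransferase gene *Agpat1* (−0.31, adjusted *P*=0.0499), and the median was −0.11, where 12.0% of all tested genes were called lower. With length and GC trends removed, *Agpat1* was at −0.0025 (adjusted *P*=0.987). Of the isoprenoid genes, *Coq2* was still called after this step (0.55, adjusted *P*=0.0829), whereas *Rabggtb* was at 0.14 (0.278), *Nus1* at 0.063 (0.569) and *Fntb* at −0.13 (0.482). Both counts were 0 without *Pax9*-null replicate 1 or 3, with 4 and 3 of the 12 and 3 and 4 of the 22 at an unadjusted *P* under 0.05. For the 12 genes the count was 1 without wild-type replicate 1 or 3, and for the 22 it was 0 without wild-type replicate 3 and 2 without *Pax9*-null replicate 2.

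Fatty acid oxidation, the breakdown of fatty acids in mitochondria, had 3 falls and 0 rises among 19 tested genes, where 12.0% of all tested genes were called lower and 26.7% in either direction. *Cpt1a*, the gate for fatty acids into mitochondria, had the largest fall among the called genes of the lipid lists, by 1.24 on the log2 scale to 42.4% of the wild-type level (adjusted *P*=0.0374). Its log2 RPKM was 1.0, 0.30 and 0.38 in wild-type libraries and −0.53, −0.56 and −0.93 in *Pax9*-null libraries, without overlap, on 26 to 109 reads per library. *Cpt2*, the partner enzyme inside the mitochondrion, fell by 0.44 (adjusted *P*=0.042), and *Acads*, a short-chain dehydrogenase, by 0.32 (adjusted *P*=0.0971). With the length and GC trends removed, *Cpt1a* was at −1.12 (adjusted *P*=0.0722) and *Cpt2* at −0.42 (adjusted *P*=0.0779), both past the threshold, whereas *Acads* was at −0.15 (adjusted *P*=0.414) and no longer called. The 19 genes had a median log2 fold change of −0.027. Limma called 0 of the 19 without *Pax9*-null replicate 1 or 3, with 2 and 4 at an unadjusted *P* under 0.05, and 5 without wild-type replicate 2.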

How the data were processed

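The libraries were made from pharyngeal tissue of 3 mutant and 3 wild-type embryos. The authors deposited log2 RPKM values per gene. The submitters' processing notes name Trimmomatic 0.32, STAR 2.5.1a, featureCounts 1.5.1 and the builds GRCm38.p5 and mm10. The labels describe another preparation (sorted cells) than the study's methods (dissected tissue), which are followed here. Genes whose mean reached 0.5 RPKM were tested with limma 3.58.1 in R 4.3.3 (lmFit and eBayes with a trend, no pseudocount), and *P* values were Benjamini-Hochberg adjusted over all genes (threshold 0.1). Reads were recovered from the values: 81.5% of values came out whole (tolerance 0.02) at annotated gene lengths, and 28 genes were not resolved. Members and lists were chosen with earlier results of these data known. The genes named are the called members, the largest rise and fall of each role, and, of the called genes of each pathway list, those with the largest rises and falls. *Mbtps1*, *Mbtps2* and the library values of *Dhcr7* and *Insig1* were added after their values were seen. Length and GC trends were removed per library with natural splines (5 degrees of freedom). Other alternatives were pseudocounts, filters, scalings, library weights, a replicate block, a stricter threshold and each library left out. Voom on the recovered reads was added after seeing the data. The fit was tested on simulated data. Motifs were searched in RefSeq promoter windows on GRCm38.p6.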

Additional observations from a re-analysis of the deposited data

How the results depend on the processing

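Of the 18 alternatives, 5 (the replicate block, both filters, eBayes without a trend and the stricter threshold) leave fold changes as they are and cannot turn a direction. Under the other 13, the direction held in 18 of the 33 members and in 7 of the 9 called ones, the exceptions being *Ggps1* and *Scap* with length and GC trends removed. The causes of the changes below were not tested. The study states no pairing of embryos by replicate number. Between libraries of the same number, the correlation of deviations from the genotype means was −0.02, −0.17 and 0.26 for numbers 1, 2 and 3. These values cannot show whether the embryos were paired. With the replicate number as a block, 1377 genes and 3 members were called (*Acly*, *Fads2* and *Srebf2*), with 0 uptake genes, 1 gene of SREBP processing, 1 of the isoprenoid branches and 0 of glycerolipid synthesis. With the trends removed, 736 genes and 1 member were called, 4 members did not overlap, 0 uptake, 1 isoprenoid and 0 glycerolipid genes were called, and the medians of the regulators and fatty acid genes were −0.024 and −0.15. At an adjusted *P* of at most 0.05, 1335 genes, 4 members, 0 uptake, 1 SREBP processing and 1 isoprenoid genes were called. A filter at a mean of 5 RPKM gave 0 uptake and 2 glycerolipid calls, quantile normalization 2 isoprenoid and 2 glycerolipid calls, eBayes without a trend 2 isoprenoid calls, and library weights 7 isoprenoid, 2 glycerolipid and 7 fatty acid oxidation calls. The 3611 calls over all genes were 1990 higher and 1621 lower as deposited, and 1433 higher and 1742 lower after quantile normalization. With 1 library left out, the calls ranged from 175 to 3578 genes, 0 to 12 members, 0 to 4 uptake, 0 to 2 SREBP processing, 0 to 5 isoprenoid, 0 to 2 glycerolipid and 0 to 5 oxidation genes, and 9 to 19 members did not overlap. With fewer libraries, the values of any gene come apart more easily. The counts of members without overlap under these settings, and with the trends removed, stand here without the share over all tested genes. They are therefore no result about the members. Fold changes turned with centring for *Hmgcs1* (0.026) and *Ebp* (0.019), with trends removed for *Mvk* (0.080), *Ggps1* (−0.11), *Sc5d* (−0.091), *Scap* (0.0067) and *Stard4* (−0.055), with quantile normalization for *Sqle* (−0.060) and *Cyp51* (−0.078), and with library weights for *Sqle* (−0.050), *Cyp51* (−0.021), *Tm7sf2* (−0.044) and *Stard4* (−0.029). With 1 library left out they ranged from −0.12 to 0.11 for *Hmgcs1*, −0.075 to 0.27 for *Fdps*, −0.079 to 0.089 for *Sqle*, −0.073 to 0.18 for *Cyp51*, −0.12 to 0.21 for *Tm7sf2*, −0.0041 to 0.35 for *Msmo1*, −0.20 to 0.048 for *Hsd17b7*, −0.057 to 0.050 for *Ebp*, −0.0079 to 0.16 for *Sc5d*, −0.030 to 0.28 for *Insig1*, −0.13 to 0.19 for *Stard4* and −0.35 to 0.025 for *Scd1*.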
